A study of Mus musculus with 8 samples.

Results

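The genes of Akt, of the mTOR complexes and of Gsk3 were examined in R1 mouse embryonic stem cells after knockdown of CnAβ1, one of the splice variants of calcineurin Aβ, a catalytic subunit made from the gene Ppp3cb. The 9 genes were Akt1, Akt2, Akt1s1, Mtor, Mlst8, Rptor, Rictor, Mapkap1 and Gsk3b, of 32530 genes or accessions on the array. Every non-control probe named for one of them was taken, which gave 14 of 39429 probes. By RefSeq, Akt1 lies on mouse chromosome 12, Akt2 and Akt1s1 on 7, Mtor on 4, Mlst8 on 17, Rptor on 11, Rictor on 15, Mapkap1 on 2 and Gsk3b on 16. R1 is a pluripotent mouse line that forms embryoid bodies in suspension. Cells had received 1 of 2 siRNAs against CnAβ1, called siRNA 1 (3 arrays) and siRNA 2 (2 arrays), or a control siRNA, called Control (3 arrays). Cells of all groups were differentiated in embryoid bodies for 48 h, under a series title that names mesoderm, and 48 h after transfection their total RNA went onto 1-colour (Cy3) Agilent arrays. All arrays came from a single line. The labels do not say whether replicates came from separate cultures, and a p-value here may therefore reflect technical spread alone.

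Akt1 and Akt2 encode serine/threonine kinases that act downstream of insulin, growth factors and PI3-kinase. Mtor encodes the kinase shared by both mTOR complexes. With raptor (Rptor) it forms mTORC1, which promotes protein and lipid synthesis, and with rictor (Rictor) and SIN1 (Mapkap1) it forms mTORC2, which phosphorylates Akt. Akt in turn phosphorylates and inhibits glycogen synthase kinase 3, one form of which Gsk3b encodes, and this kinase marks β-catenin for degradation. In embryonic stem cells inhibition of Gsk3 is known to favour self-renewal. The CnAβ1 variant has been linked to mTORC2 and Akt signalling. The arrays measured transcripts only, and neither protein nor phosphorylation of any member was measured here.

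Promoter windows of Akt1 and Mlst8 are shown because these were the members whose siRNA 1 arrays did not overlap the Control arrays. The window nearest the gene's 5′ end was taken. Each runs from 250 bases before to 50 bases after a transcript start, 5′ to 3′ on the gene's strand, in RefSeq for build GRCm38.p6. The Akt1 window is chr12:112674835-112675134 on the minus strand, and the Mlst8 window is chr17:24479029-24479328 on the minus strand. Capitals mark, on either strand, the letters GGAAA (the core of NFAT sites; NFAT is the factor that calcineurin activates) and GTAAACA (a FoxO site; FoxO factors are inhibited by Akt).
Akt1: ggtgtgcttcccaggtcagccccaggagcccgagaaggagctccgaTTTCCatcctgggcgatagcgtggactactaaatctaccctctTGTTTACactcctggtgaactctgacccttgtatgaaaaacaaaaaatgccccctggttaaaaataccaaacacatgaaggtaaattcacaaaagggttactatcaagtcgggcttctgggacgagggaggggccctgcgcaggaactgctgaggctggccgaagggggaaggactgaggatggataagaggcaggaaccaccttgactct
Mlst8: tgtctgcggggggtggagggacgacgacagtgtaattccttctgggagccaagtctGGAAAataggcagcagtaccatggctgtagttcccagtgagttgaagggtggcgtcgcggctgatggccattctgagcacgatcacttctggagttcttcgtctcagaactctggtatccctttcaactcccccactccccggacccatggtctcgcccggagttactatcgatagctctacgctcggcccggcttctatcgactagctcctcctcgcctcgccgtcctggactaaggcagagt
All 9 members matched a RefSeq window, and each motif was searched on both strands. GGAAA lay in 7 of the 9 windows, against 61.3% of all 32851 windows of this length. GTAAACA lay in 2 of 9 (Akt1 and Mapkap1), against 3.65% of all windows. CTTTGA, a core of TCF/LEF sites through which β-catenin acts, lay in 2 of 9 (Akt2 and Gsk3b), against 16.0%. The E-box CACGTG lay in 0 of 9, against 7.15%, and the GC box GGGCGG in 5 of 9, against 35.7%. None of these motifs overlapped another within the 2 windows printed, and a match describes letters only.

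On each array 68.0% to 75.1% of the spots other than controls stood well above background, and no spot was saturated. Precision is limited by how few arrays there were. A level is given as log2 of the processed signal over the 75th percentile of its array, so that 0 is the 75th percentile and 1 unit is a 2-fold change. The arrays lay on 3 slides, and slide 1, which held replicate 1 of each group, stood apart. Within groups, limma called 1330 genes (5.93% of 22422) between slide 1 and the other slides at an adjusted p under 0.05, and 0 of the 9 members. On the slides siRNA 1 always took position 2, siRNA 2 position 3 and Control position 1, so position and group cannot be told apart. The probe for Ppp3cb read 0.18, 0.39 and 0.61 in siRNA 1, 0.42 and 0.62 in siRNA 2, and 0.75, 0.52 and 0.62 in Control. Whether that probe reads the CnAβ1 variant is not known here, so it does not check the knockdown. All 10 pluripotency markers examined (Pou5f1, Sox2, Nanog and others) were measured well above background.

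All 9 members were measured, and none differed between any 2 groups past the threshold. For both siRNAs together against Control the log2 differences lay between -0.11 (Akt1) and 0.03 (Rptor), with 4 members higher and 5 lower. Of all genes, 52.9% were higher in that comparison. In limma's fit over all 22422 genes the smallest adjusted p of a member was 0.9998 in any of the 4 comparisons, and 0 of 9 had an unadjusted p under 0.05. The same fit called 0% of all genes at an adjusted p under 0.05 in each comparison. The share of all genes at an unadjusted p under 0.05 was 3.59% for the pooled siRNAs, while siRNA 1 had 3.5%, siRNA 2 had 3.35%, and siRNA 2 against siRNA 1 had 3.36%. The members' 95% intervals, turned into folds, ran from 0.770 to 1.19 for both siRNAs, from 0.728 to 1.26 for siRNA 1, from 0.764 to 1.23 for siRNA 2, and from 0.741 to 1.36 for siRNA 2 against siRNA 1. Every interval lay within a 2-fold change in either direction, and changes inside the intervals could not be resolved with these arrays.

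**Figure D1:**
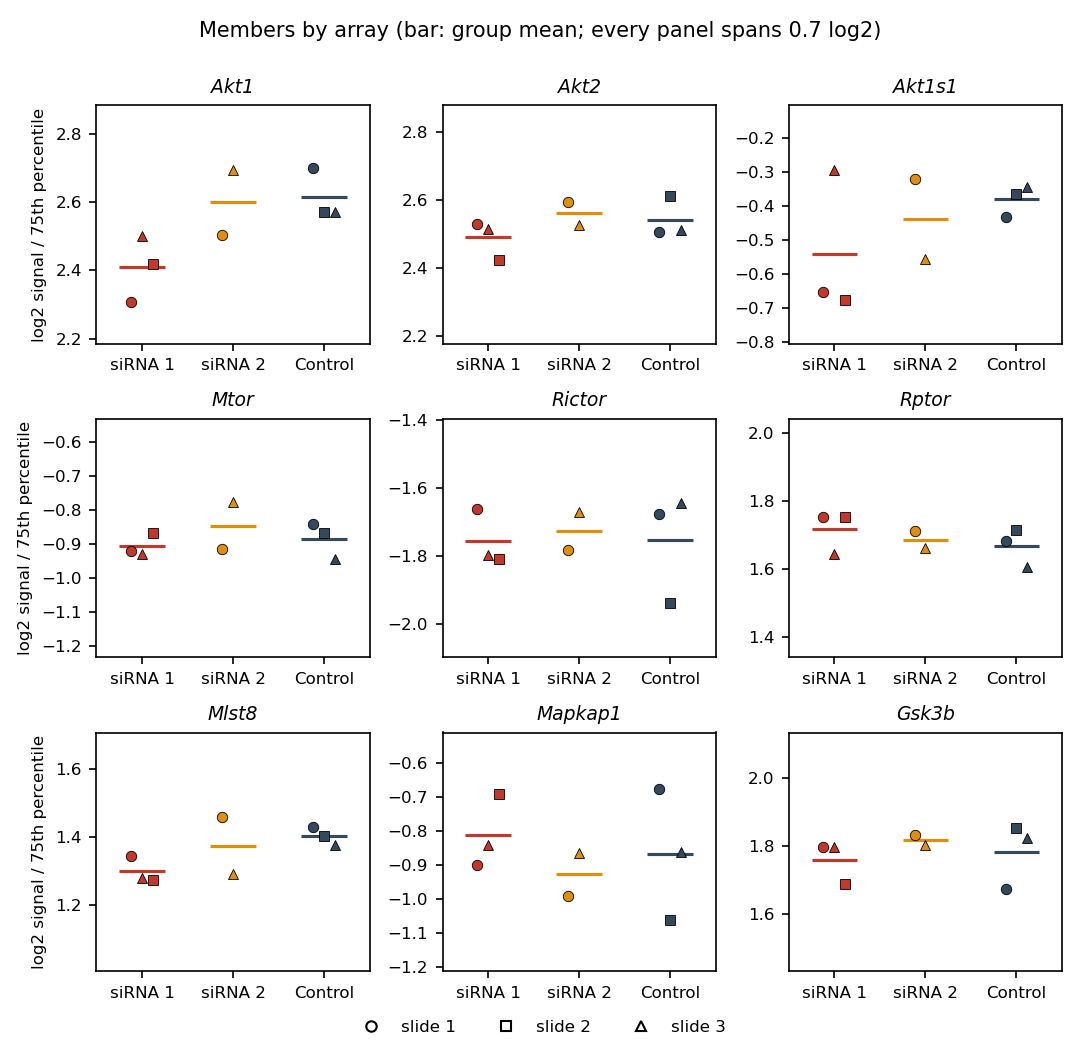
Level of each member on every array, as log2 signal over the array's 75th percentile, with siRNA 1, siRNA 2 and Control from left to right; bars are group means, marker shapes are slides, and every panel spans the same height. The groups overlap in most panels; siRNA 1 lies below Control for Akt1 (2.31 to 2.50 against 2.57 to 2.70) and for Mlst8 (1.28 to 1.34 against 1.38 to 1.43).

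Akt1, the kinase form found in most tissues, had the largest difference from Control among the members. Its probe read 2.31, 2.50 and 2.42 in siRNA 1, 2.51 and 2.70 in siRNA 2, and 2.70, 2.57 and 2.57 in Control. All 3 siRNA 1 arrays lay below every Control array, while siRNA 2 overlapped Control. Group means with their SD were 2.41 ± 0.10 for the 3 siRNA 1 arrays, 2.60 ± 0.13 for the 2 siRNA 2 arrays and 2.61 ± 0.08 for the 3 Control arrays. The siRNA 1 difference was -0.21 (95% interval -0.43 to 0.02; limma, unadjusted p = 0.0661, adjusted p = 0.9999), or 0.867-fold. For siRNA 2 the difference from Control was -0.01 (-0.26 to 0.24). The gap between siRNA 2 and siRNA 1 was 0.19 (-0.06 to 0.44; limma, unadjusted p = 0.113), again with no overlap of the arrays, and it was 0.10 without siRNA 2 replicate 2 and 0.29 without siRNA 2 replicate 1. Groups without overlap were common on these arrays. For siRNA 1 against Control they made up 7.9% of all genes (2.5% in the lower direction), and for siRNA 2 against siRNA 1 19.1% (7.27% in the higher direction). Within slide 1, Akt1 differed from Control by -0.39 in siRNA 1 and by -0.20 in siRNA 2. On slide 2 the siRNA 1 difference was -0.15, and on slide 3 the differences were -0.07 in siRNA 1 and 0.12 in siRNA 2. Without the 3 slide 1 arrays the value for both siRNAs was 0.01 and that for siRNA 1 -0.11.

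Akt2, the form best known for insulin-driven glucose uptake, had 3 probes, each well above background on every array. Its brightest probe (A_55_P2066518) read 2.53, 2.52 and 2.42 in siRNA 1, 2.59 and 2.53 in siRNA 2, and 2.50, 2.61 and 2.51 in Control. The 3 groups overlapped, and the differences from Control were -0.05 (-0.23 to 0.13) for siRNA 1 and 0.02 (-0.18 to 0.22) for siRNA 2. The other 2 probes differed from Control by -0.03 (A_55_P2025228) and 0.07 (A_55_P2066523) for both siRNAs. Probe A_55_P2066523 carried the largest Akt2 values in a fit of all 27391 probes. They were 0.14 (-0.12 to 0.40) for siRNA 2 against Control and 0.15 (-0.11 to 0.41) for siRNA 2 against siRNA 1.

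Akt1s1 encodes PRAS40, an Akt substrate that binds and restrains mTORC1. Its level was -0.65, -0.30 and -0.68 in siRNA 1, -0.32 and -0.56 in siRNA 2, and -0.43, -0.37 and -0.35 in Control. Replicates 1 and 3 of siRNA 1 and replicate 2 of siRNA 2 read below every Control array, and the other siRNA arrays read above them. The siRNA arrays were thus the more scattered, with an SD of 0.21 in siRNA 1 (n = 3), 0.17 in siRNA 2 (n = 2) and 0.05 in Control (n = 3), a difference in spread that was not tested. The differences from Control were -0.16 (-0.46 to 0.14) for siRNA 1 and -0.06 (-0.39 to 0.28) for siRNA 2.

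Mtor, the shared kinase, read -0.92, -0.93 and -0.87 in siRNA 1, -0.92 and -0.78 in siRNA 2, and -0.84, -0.87 and -0.94 in Control. The groups overlapped, and replicate 2 of siRNA 2 (-0.78) was the highest array. The difference for both siRNAs was 0.01 (-0.16 to 0.17). Mlst8 encodes the other subunit common to both complexes, a WD-repeat protein bound to the kinase domain. It read 1.34, 1.28 and 1.28 in siRNA 1, 1.46 and 1.29 in siRNA 2, and 1.43, 1.40 and 1.38 in Control. All siRNA 1 arrays lay below the Control arrays, and the siRNA 2 arrays lay on either side of them. The siRNA 1 difference was -0.10 (-0.29 to 0.08; limma, unadjusted p = 0.229, adjusted p = 0.9999), and the siRNA 2 difference was -0.03 (-0.23 to 0.18). Within slides Mlst8 was lower than Control on 4 of 5 siRNA arrays, with differences between -0.13 and 0.03. The siRNA arrays of a slide share its Control array, so differences within slides, here and below, are not independent.

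Rptor, whose protein brings substrates to mTORC1, had the smallest range of the members. It read 1.75, 1.64 and 1.75 in siRNA 1, 1.71 and 1.66 in siRNA 2, and 1.68, 1.71 and 1.61 in Control. The groups overlapped, and the difference for both siRNAs was 0.03 (-0.13 to 0.20). On its own slide each of the 5 siRNA arrays read above the Control array, by 0.03 to 0.07. These 5 values share Control arrays, and how many of all genes show this was not counted. With the slide as a block the difference was 0.04 (-0.13 to 0.22, limma, adjusted p = 1.00).

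Of the mTORC2 subunits, Rictor read -1.66, -1.80 and -1.81 in siRNA 1, -1.78 and -1.67 in siRNA 2, and -1.68, -1.94 and -1.65 in Control. Control replicate 2 was the lowest array and Control replicate 3 the highest, so every siRNA array lay inside the Control range. The difference for both siRNAs was 0.01 (-0.21 to 0.24). Mapkap1 encodes SIN1, which brings substrates to mTORC2. Its brighter probe read -0.90, -0.84 and -0.69 in siRNA 1, -0.99 and -0.86 in siRNA 2, and -0.68, -1.06 and -0.86 in Control. Here, too, Control spanned all siRNA arrays, and the differences were 0.06 (-0.22 to 0.34) for siRNA 1 and -0.06 (-0.38 to 0.25) for siRNA 2. A second Mapkap1 probe (A_55_P2046368) was well above background on 0 of 8 arrays and was not tested. It was the only one of the 14 probes not tested.

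Gsk3b had 3 probes, whose directions differed for both siRNAs against Control. The brightest (A_55_P1981415) read 1.80, 1.80 and 1.69 in siRNA 1, 1.83 and 1.80 in siRNA 2, and 1.67, 1.85 and 1.82 in Control. Control spanned all siRNA arrays, and the difference for both siRNAs was 0.01 (-0.17 to 0.18). A second probe (A_66_P104190) read -1.72, -1.57 and -1.53 in siRNA 1, -1.58 and -1.54 in siRNA 2, and -1.51, -1.41 and -1.43 in Control. On it all 5 siRNA arrays lay below every Control array, with a difference of -0.13 (-0.31 to 0.04; limma over all probes, unadjusted p = 0.119, adjusted p = 1.00). Over all genes, the 5 siRNA arrays did not overlap the 3 Control arrays in 3.44% (lower in 1.01%, higher in 2.43%). By its brightest probe no member showed this, and no member's siRNA 2 arrays stood apart from Control either, which 16.9% of all genes did. The third probe (A_51_P514412) read -1.76, -1.63 and -1.79 in siRNA 1, -1.49 and -1.42 in siRNA 2, and -1.46, -1.62 and -1.67 in Control. On this probe siRNA 2 lay above siRNA 1 by 0.27 (0.03 to 0.51; limma over all probes, unadjusted p = 0.0331, adjusted p = 1.00). The brightest probe gave 0.06 for the same contrast and the second probe 0.04. All 3 were thus positive, and the size was seen on a single probe. On the brightest probe, too, the siRNA 2 arrays lay above all siRNA 1 arrays, but the nearest values were both 1.80. By the brightest probe 2 of 9 members (Akt1 and Gsk3b) lacked overlap in this contrast, against 19.1% of all genes. What part of the transcript each probe reads was not analysed here.

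**Figure D2:**
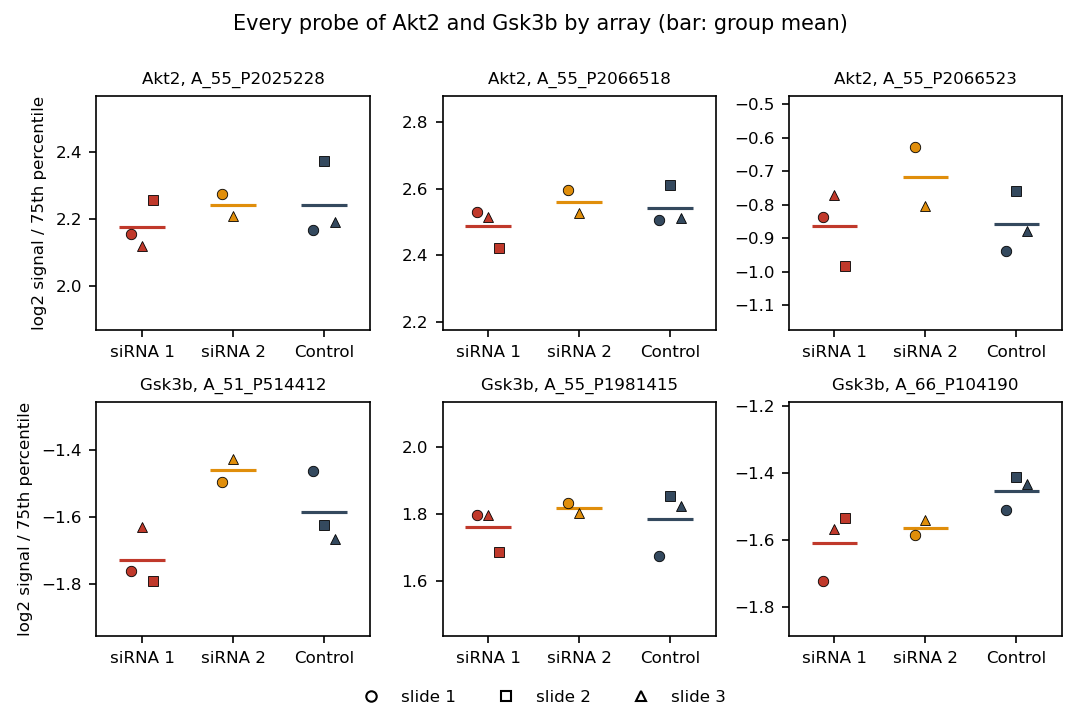
Level of each probe of Akt2 and Gsk3b on every array, as log2 signal over the array's 75th percentile, with siRNA 1, siRNA 2 and Control from left to right; bars are group means and marker shapes are slides. Gsk3b probe A_66_P104190 has all siRNA arrays at -1.53 or lower and all Control arrays at -1.51 or higher, which the other Gsk3b probes do not show.

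The order of the group means was not the same for all members. siRNA 1 was the lowest group for Akt1, Akt2, Akt1s1, Mtor, Rictor, Mlst8 and Gsk3b, Control for Rptor, and siRNA 2 for Mapkap1. Neighbouring means in that order were further apart than the residual SD of the gene for Akt1 (0.19 between siRNA 2 and siRNA 1, against 0.10) and Mlst8 (0.07 against 0.06) alone. Every other gap between neighbours was within the residual SD. Against Control, 2 members were higher and 7 lower for siRNA 1, and 5 were higher and 4 lower for siRNA 2, 2 comparisons that share the Control arrays. Of all genes, 58.2% were higher for siRNA 1 and 49.8% for siRNA 2. For siRNA 2 against siRNA 1, 7 members were higher and 2 lower, while 42.4% of all genes were higher. The median size of the members' difference, sign ignored, was 0.02 for both siRNAs, against 0.08 over all genes. It was 0.05 against 0.09 for siRNA 1, 0.03 against 0.10 for siRNA 2, and 0.07 against 0.10 for siRNA 2 against siRNA 1. The range over all 8 arrays was below that of the median gene (0.50) for all 9 members. For Rptor, Mtor, Gsk3b, Mlst8 and Akt2 the share of genes with a smaller range lay between 1.60% (Rptor) and 4.73% (Akt2). For Rictor the share was 20.5%, and for Akt1s1, Mapkap1 and Akt1 it lay between 34.7% and 36.8%. The members' range was not set against genes of like brightness, so its dependence on signal was not tested.

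**Figure D3:**
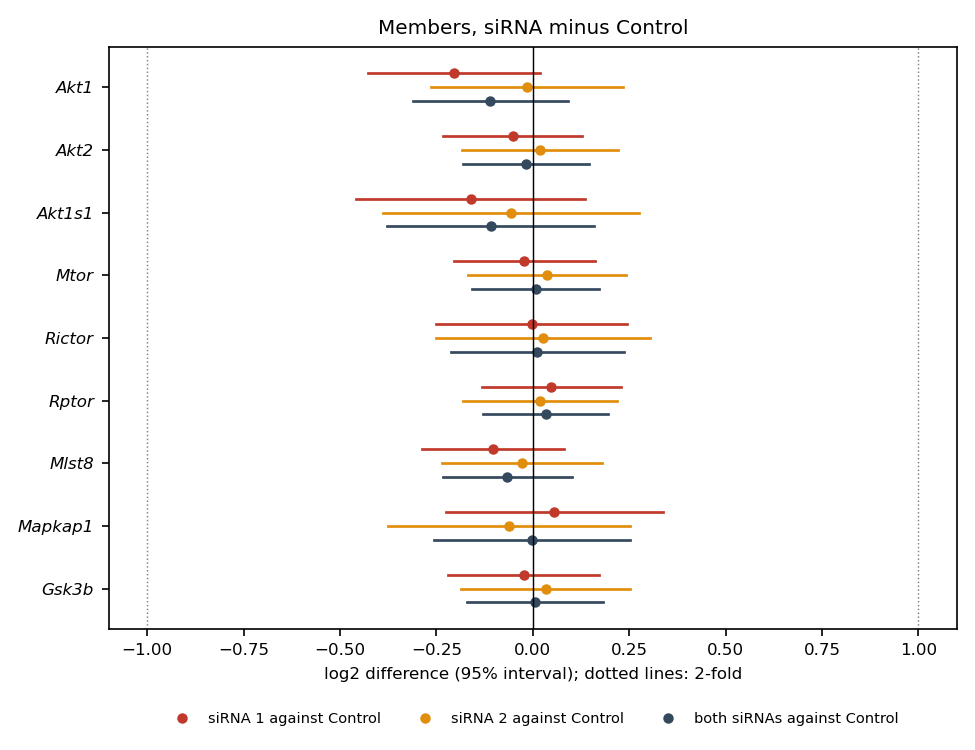
Log2 difference of each member with its 95% interval, for siRNA 1, siRNA 2 and both siRNAs against Control; dotted lines mark a 2-fold change. Every interval includes 0 and lies inside the 2-fold lines, and the lowest point is Akt1 in siRNA 1 at -0.21.

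By a fixed measure of likeness, the root mean square difference of centred log2 values over the 8 arrays, Ptpn1 (0.0278) and Chaf1a (0.0364) were closest to Akt1. Ptpn1 encodes a tyrosine phosphatase of the insulin receptor, and Chaf1a a chromatin assembly factor subunit. The median gene stood at 0.193 from Akt1. Myo19 (0.0306), a mitochondrial myosin, and Nek2 (0.0323), a centrosomal kinase, were closest to Rictor, with a median of 0.173 over all genes. Gosr1 (0.0284), a Golgi SNARE, and Pnldc1 (0.0299), a piRNA-trimming nuclease, were closest to Gsk3b, with a median of 0.157. Since the members were nearly flat over the 8 arrays (a flat line stood at 0.124 from Akt1, 0.0950 from Rictor and 0.0621 from Gsk3b), these are descriptions of small values.

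The other genes of the pathway were described by 9 lists with 98 genes in all, of which 97 were tested (Inpp4b, a phosphoinositide phosphatase, was not well above background on any array). None was called in any comparison at limma's adjusted p under 0.05. At an unadjusted p under 0.05 were 5 of 97 (5.15%, against 3.59% of all genes) for both siRNAs, 3 (3.09%, against 3.5%) for siRNA 1, and 2 (2.06%, against 3.35%) for siRNA 2. For both siRNAs 4 of 97 (Tsc2, Rps6, Frat1 and Vegfa) had siRNA arrays that did not overlap Control, against 3.44% of all genes. The median difference over all genes was 0.01 for both siRNAs.

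Among receptors, PI3-kinase subunits and lipid phosphatases, 8 of 15 tested genes were higher for both siRNAs and 7 lower, with a median of 0.01. Pik3r3, a regulatory subunit of PI3-kinase, read 0.12, -0.15 and -0.35 in siRNA 1, 0.05 and -0.40 in siRNA 2, and -0.94, -0.36 and -0.49 in Control. The difference was 0.45 (limma, unadjusted p = 0.0457, adjusted p = 0.9999), and the groups overlapped by 1 siRNA 2 array. Within slide 1 it was 1.06 in siRNA 1 and 0.99 in siRNA 2, it lay between 0.01 and 0.34 on the other slides, and it was 0.10 without the slide 1 arrays.

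The paralogs and other subunits of the complexes held 3 higher and 4 lower genes out of 7, with a median of -0.03. Gsk3a, which encodes the α form of glycogen synthase kinase 3, differed by -0.05. Deptor, which binds and inhibits mTOR, differed by -0.11 (-0.27 to 0.05), and Telo2, part of the chaperone that assembles it, by -0.04.

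Upstream of mTORC1, 12 of 21 genes of the TSC, Rheb and Rag group were higher and 9 lower, with a median of 0.01. Tsc2 encodes tuberin, which switches off Rheb and is an Akt substrate. It read -3.43, -3.21 and -3.17 in siRNA 1, -3.27 and -3.14 in siRNA 2, and -3.14, -2.89 and -2.98 in Control. All 5 siRNA arrays lay below the Control arrays, although siRNA 2 replicate 2 and Control replicate 1 were nearly equal. Within slides the differences from Control lay between -0.29 and -0.13. The difference was -0.24 (-0.47 to -0.01; limma, unadjusted p = 0.0458, adjusted p = 0.9999). Lamtor3, part of the lysosomal Ragulator scaffold, differed by 0.14 (-0.03 to 0.32).

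Downstream of mTORC1, 9 of 12 substrates and translation genes were higher and 3 lower, with a median of 0.06. Rps6, the ribosomal protein that S6 kinase phosphorylates, read 7.48, 7.56 and 7.43 in siRNA 1, 7.44 and 7.55 in siRNA 2, and 7.32, 7.38 and 7.32 in Control. Those arrays did not overlap, and the difference was 0.15 (-0.01 to 0.32; limma, unadjusted p = 0.0661, adjusted p = 0.9999). Its other 2 probes gave 0.06 and -0.05. Tfeb, a lysosomal gene regulator held in the cytoplasm by mTORC1, differed by 0.31 (-0.10 to 0.73), by 0.20 without Control replicate 3, by 0.49 without Control replicate 2 and by 0.11 without the slide 1 arrays. Of 10 transcripts linked to mTORC1 activity, 3 were higher and 7 lower, with a median of -0.04. Vegfa, the vascular growth factor, read -2.18, -2.16 and -2.25 in siRNA 1, -2.56 and -2.41 in siRNA 2, and -2.14, -2.14 and -1.88 in Control. All siRNA arrays were lower, siRNA 2 by more, although siRNA 1 replicate 2 (-2.16) and Control replicate 2 (-2.14) were nearly equal. The difference for both was -0.29 (-0.50 to -0.08, limma, unadjusted p = 0.0141, adjusted p = 0.9999). A second Vegfa probe gave -0.31. Fasn, fatty acid synthase, differed by -0.10 (-0.33 to 0.13).

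Of 9 Akt and Sgk substrates and Sgk genes, 3 were higher and 6 lower, with a median of -0.09. Cdkn1b, the cell cycle inhibitor p27, differed by -0.15 (-0.36 to 0.06) and Bad, a pro-apoptotic Bcl-2 relative, by -0.12 (-0.29 to 0.05). Of 10 FoxO target transcripts, 6 were higher and 4 lower, with a median of 0.03. The values nearest to a call were those of Cited2, a transcriptional co-regulator, at 0.13, and Ccng2, a cyclin of resting cells, at 0.09.

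Around Gsk3, 5 of 8 partners and substrates were higher and 3 lower, with a median of 0.02. Frat1, which binds Gsk3 and lowers its activity toward β-catenin, read -1.38, -1.32 and -1.47 in siRNA 1, -1.26 and -1.37 in siRNA 2, and -1.04, -1.21 and -1.12 in Control. All 5 siRNA arrays were lower than all Control arrays, and the differences within slides lay between -0.34 and -0.20. The difference was -0.23 (-0.41 to -0.05; limma, unadjusted p = 0.0210, adjusted p = 0.9999). Myc, whose protein Gsk3 marks for degradation, differed by 0.19 (-0.15 to 0.54), by 0.0068 without Control replicate 2 and by 0.31 without Control replicate 1.

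Of 9 β-catenin target transcripts, 3 were higher and 6 lower for both siRNAs, with a median of -0.10, and 2 were higher and 7 lower for siRNA 2, with a median of -0.17. Sp5, a zinc-finger gene activated by Wnt signalling, read -1.47, -1.07 and -1.24 in siRNA 1, -1.82 and -2.53 in siRNA 2, and -0.36, -1.46 and -0.68 in Control. The siRNA 2 arrays were the lowest of all, and siRNA 1 overlapped Control. The differences from Control were -0.43 for siRNA 1 (limma, unadjusted p = 0.207) and -1.34 for siRNA 2 (limma, unadjusted p = 0.00595, adjusted p = 0.9998). With 1 array left out, the siRNA 1 difference of Sp5 lay between -0.74 (without Control replicate 2) and -0.19 (without Control replicate 1), and it was -0.09 without the slide 1 arrays. T, which encodes brachyury and is both a β-catenin target and a primitive streak gene, differed by -0.74 (-1.70 to 0.22) for both siRNAs, or by -0.14 without the slide 1 arrays. Marker levels of other cell types stood as follows beside these values. The 11 tested endoderm markers had a median difference of -0.18 for siRNA 1 and -1.11 for siRNA 2. In siRNA 1, 3 of the 11 were higher than in Control (Ttr by 0.89, Afp by 0.70 and Rbp4 by 0.11) and 8 lower. Afp was well above background on 6 of 8 arrays, so it passed the filter through the groups where it was high. Their median level lay between -1.80 and -1.15 in siRNA 1, between -2.79 and -2.76 in siRNA 2, and between -1.74 and -1.09 in Control. The 6 tested mesoderm and primitive streak markers had medians of -0.46 for siRNA 1 and -0.89 for siRNA 2, and their median level lay between -2.12 and -1.97 in siRNA 1, between -2.47 and -2.24 in siRNA 2, and between -2.30 and -1.49 in Control. The markers Apoa1, Mixl1 and Mesp1 were not tested, as no group had all its arrays well above background. They were so on 2 or 3 of the 8 arrays. The part of these markers in the β-catenin target values was not tested, and in bulk samples fewer cells of a type and less RNA per cell cannot be told apart. The 10 pluripotency genes had medians of 0.42 for siRNA 1 and 0.15 for siRNA 2, and their median level lay between 1.43 and 2.12 in siRNA 1, between 1.37 and 1.72 in siRNA 2, and between 0.98 and 1.78 in Control. Of 8 fibroblast genes 7 were tested (Postn was not), with medians of -0.08 for siRNA 1 and -0.13 for siRNA 2. Their median level lay between -2.85 and -2.56 in siRNA 1 and between -2.50 and -2.46 in siRNA 2. In Control it lay between -2.20 and -1.78, above all siRNA arrays. That median is the level of the middle gene of the 7 on each array. It also counts Fap (below), so its lack of overlap is no support. For both siRNAs 2 of the 7 fibroblast genes were higher (Thy1 by 0.09 and Pdgfrb by 0.05) and 5 lower. Among the lower, Col1a1, Col1a2 and Col3a1 overlapped Control, at -0.06, -0.16 and -0.12. Col6a1, a collagen VI chain, differed by -0.67 for both siRNAs (limma, unadjusted p = 0.0010, adjusted p = 0.679). Its siRNA arrays lay below all Control arrays. Those of Fap, a fibroblast surface protease, did too, but Fap was well above background on only 3 of the 8 arrays. With its 3 highest readings in Control, Fap passed the filter through 1 group alone, so its lack of overlap is no support. Fgf4, a pluripotency marker, differed by 0.44 for both siRNAs, also without overlap (limma, unadjusted p = 0.00072, adjusted p = 0.676). So did Fgf8, a streak marker, by -1.08 (limma, unadjusted p = 0.0034, adjusted p = 0.916). At limma's unadjusted p under 0.05 were 4 of 11 endoderm, 3 of 6 streak, 1 of 10 pluripotency and 2 of 7 fibroblast markers. Afp and Fap were among them, and 3.59% of all genes were. The part of the pluripotency and fibroblast genes in the members' values was not tested.

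**Figure D4:**
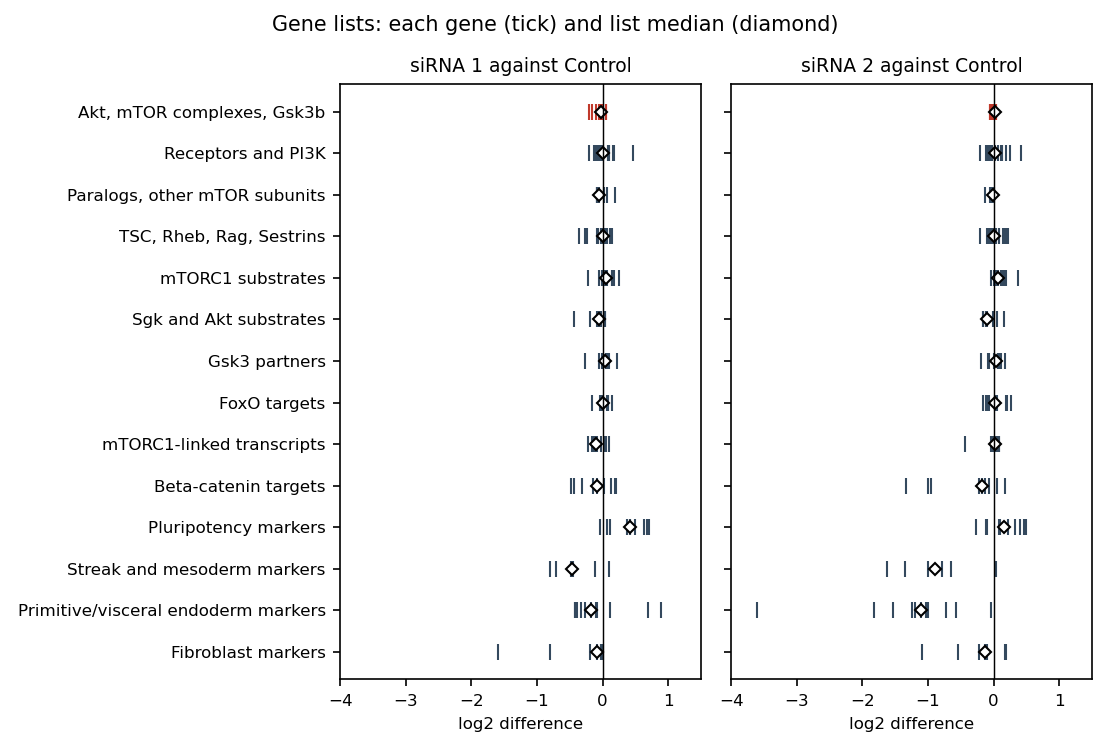
Log2 differences of each gene (ticks) and the median (diamonds) of the members, the pathway lists and the marker lists, for siRNA 1 against Control (left) and siRNA 2 against Control (right). The members lie between -0.21 and 0.06 for siRNA 1 and between -0.06 and 0.04 for siRNA 2, and the lowest median, -1.11, is that of the endoderm markers in siRNA 2.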

How the data were processed

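Total RNA on 8 Agilent 1-colour arrays was read from the deposited scanner files, whose intensity values the authors extracted with Agilent Feature Extraction 10.7.3.1 on a design of build mm9, per the file headers. Processed intensity was already background-corrected, per the file headers. A deposited value table held log2 values that followed log2 processed signal minus the 75th percentile, centred on each probe's median, with column medians between -0.04 and 0.02; it served as an alternative. In it, the column for Control 2 tracked the scanner data of Control 3 and the reverse (r = 1.00 across 25708 probes, against -0.06 under the same name), and the scanner files' naming was used. RMA appears in the submitters' processing notes without a stated role.

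Control and outlier spots were left out, spots of a probe averaged, and log2 processed signal scaled to each array's 75th percentile (838 to 1031). Symbols came from RefSeq (GRCm38.p6) by unversioned accession for 26424 of 39429 probes; 13005 are unnamed here. A gene was read from its probe with the highest mean, and tested where 1 or more groups had all their arrays well above background (22422 genes, 15565 with a symbol). limma 3.58.1 (lmFit, eBayes; R 4.3.3, statmod 1.5.0) fitted the 3 groups together, with 5 residual and 2.09 prior degrees of freedom, Benjamini-Hochberg adjustment over all genes and a threshold of 0.05; it was tested on simulated data. Python 3.11.15, pandas 2.3.3, numpy 2.4.6 and matplotlib 3.10.9 did the rest.

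The members and lists were chosen with earlier results of these data known. Named genes were all members and, per pathway list, the 2 with the smallest p for both siRNAs. Gsk3a, the Ppp3cb probe, the genes of the marker lists and the genes not tested were named outside that rule. A gene that the rule takes is not reported here, and counts include it. Same-numbered replicates gave deviations with r between -0.04 and 0.70 over 7 pairs, so the numbers were not taken to pair samples. Arrays of different groups on the same slide gave r between 0.04 and 0.70 over 7 pairs. The main fit did not include the slide, which was a block among the alternatives only. Alternatives were quantile normalization, normexp (offset 50) on median spot signals with quantile normalization, the value table, no filter, all probes, only the groups compared, array weights, replicate and slide blocks, leaving out each array and, added after seeing the data, leaving out slide 1.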

Additional observations from a re-analysis of the deposited data

How the results depend on the processing

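Over the alternatives, 566 of 639 differences of the members between groups kept their direction, 73 turned, and 0 passed the threshold (smallest limma adjusted p 0.5746). Many of the 639 could not turn. Testing all probes, using no filter and fitting only the groups compared leave the group means of a member unchanged. Leaving out an array cannot move a comparison without its group, and the slide block left siRNA 1 against Control as it was. The turned values were small, none above 0.15 in size, and the cause was not tested. With array weights the turned values were for both siRNAs Akt2 0.0014, Gsk3b -0.024, Mapkap1 0.00024 and Rictor -0.082, for siRNA 1 Mtor 0.022 and for siRNA 2 Akt1 0.014 and Rictor -0.053. With normexp the turned values were for both siRNAs Akt2 0.012, Gsk3b -0.025 and Rictor -0.0087, for siRNA 2 Akt1 0.0026 and Gsk3b -0.025, for siRNA 2 against siRNA 1 Gsk3b -0.00035 and Mlst8 -0.016 and for slide 1 Akt1 0.035, Mapkap1 -0.0039 and Mlst8 -0.062. In the value table the turned values were for both siRNAs Gsk3b -0.0035 and Mtor -0.00079. With quantile normalization the turned values were for both siRNAs Gsk3b -0.0081 and for slide 1 Mtor 0.0081. With the replicate number as a block the turned values were for both siRNAs Mapkap1 0.013 and for siRNA 2 Akt2 -0.0058. With the slide as a block the turned values were for both siRNAs Rictor -0.017, for siRNA 2 Rictor -0.033 and for siRNA 2 against siRNA 1 Rictor -0.030. Without the 3 slide 1 arrays the turned values were for both siRNAs Akt1 0.0070, Gsk3b -0.066, Mapkap1 0.15 and Cited2 -0.041, for siRNA 1 Mtor 0.0065, for siRNA 2 Akt1 0.12, Akt2 -0.034, Gsk3b -0.036 and Mapkap1 0.10 and for siRNA 2 against siRNA 1 Akt1s1 -0.069. The list of turned values includes Cited2, a listed FoxO target. With 1 array left out at a time, the ranges of those that turned were, for both siRNAs, Akt2 from -0.036 to 0.017, Gsk3b from -0.049 to 0.040, Mapkap1 from -0.10 to 0.092, Mtor from -0.027 to 0.043 and Rictor from -0.080 to 0.066. For siRNA 1 they were Gsk3b from -0.078 to 0.013, Mapkap1 from -0.041 to 0.15 and Rictor from -0.094 to 0.052. For siRNA 2 they were Akt1 from -0.11 to 0.081, Akt1s1 from -0.17 to 0.061, Akt2 from -0.016 to 0.053, Gsk3b from -0.021 to 0.069, Mapkap1 from -0.16 to 0.034, Mlst8 from -0.11 to 0.056, Mtor from -0.032 to 0.11, Rictor from -0.066 to 0.082 and Rptor from -0.012 to 0.044. For siRNA 2 against siRNA 1 they were Akt1s1 from -0.013 to 0.23, Mlst8 from -0.0094 to 0.16, Mtor from -0.0098 to 0.13 and Rictor from -0.026 to 0.084. For slide 1 they were Akt1s1 from -0.12 to 0.057, Akt2 from -0.0029 to 0.064, Gsk3b from -0.081 to 0.045, Mapkap1 from -0.13 to 0.11 and Mtor from -0.073 to 0.020. The Akt1 difference of siRNA 2 against siRNA 1 lay between 0.096 (without siRNA 2 replicate 2) and 0.29 (without siRNA 2 replicate 1). Medians over lists, for both siRNAs, also turned with 1 array left out: mTORC1-linked transcripts from -0.067 to 0.0025 (0.022 under another setting), paralogs and other subunits from -0.096 to 0.016 (0.042 under another setting), FoxO targets from -0.016 to 0.082, Gsk3 partners from -0.016 to 0.030, the TSC, Rheb and Rag group from -0.013 to 0.034, receptors and PI3-kinase from -0.0027 to 0.058 and fibroblast genes from -0.23 to 0.0017. The β-catenin targets lay between -0.29 (without Control replicate 2) and -0.0052 (without Control replicate 1), and endoderm markers between -0.85 and -0.34. Pluripotency genes lay between 0.13 and 0.42 (0.049 under another setting). Mesoderm markers lay between -0.96 and -0.44 (-0.28 under another setting). The replicate number as a block changed no call: 0 genes passed, and Akt1 differed by -0.11 for both siRNAs. Array weights called 9 genes for both siRNAs, 0 of them members or listed genes. Leaving out siRNA 2 replicate 2 gave 1 call for siRNA 2, and fitting only the groups compared gave 1 for siRNA 2 against siRNA 1; the other counts of calls between groups were 0. The count for slide 1 lay between 798 (without siRNA 1 replicate 1) and 1254 with an array left out; it was 877 without siRNA 1 replicate 2 and 883 without either siRNA 2 array. For both siRNAs, fitting only the groups compared is the fit reported. Signal over background limited 1 Mapkap1 probe.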
